A study of Mus musculus with 8 samples.

Results

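Mouse embryonic stem cells were profiled for H3K36me3, histone H3 trimethylated at lysine 36, with ChIP-seq. The regions described here are the control peaks over short genes that were no longer called after Setd2 knockdown. A region belonged to this set when it was a control peak on chromosomes 1 to 19, was 10000 bp or shorter, had its midpoint in a protein-coding gene of 5 kb or less in the RefSeq annotation of mm10, and shared no base with any knockdown peak. Of all 30634 control peaks, 530 met these terms, in 525 host genes, which are 11.5% of the protein-coding genes of this length. The peaks were thus chosen by their lack of overlap with the knockdown list, which 94.2% of all control peaks of these chromosomes and lengths share, and nothing is read from their loss. They are called lost peaks below, and the host is the shortest protein-coding gene at the midpoint. "Lost" says that the caller reported no peak there after knockdown. It does not say that the mark was absent, since the signal under the caller's threshold is not in a peak list.

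The 8 libraries formed 4 groups of 2 replicates. Knockdown cells, labelled Setd2 knockdown, received 1 µg/ml doxycycline for 4 days, and control cells were not given doxycycline, so that the drug and the knockdown cannot be told apart. Each condition had an H3K36me3 ChIP group and an input group. All cells were feeder-free embryonic stem cells with a doxycycline-inducible knockdown of Setd2 and grew as spheres in 2i medium plus LIF. In this medium 2 kinase inhibitors (PD0325901 against MEK, CHIR99021 against GSK3) and the cytokine LIF keep stem cells naive. The labels number the replicates and do not say whether they were separate cultures.

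The authors merged replicates before calling peaks, so each condition is 1 list, with no spread between replicates and no test between conditions. The caller kept 29416169 ChIP tags in knockdown and 36244210 in control. Markers fixed for the cell type were covered by control peaks in 9 of 10 pluripotency genes, with Dppa5a at 0. Control peaks touched 2 of 6 fibroblast markers (Fn1 and Vim, with the 3 collagen genes and Thy1 at 0), 0 of 4 hepatocyte, 1 of 4 muscle, 0 of 4 blood and 2 of 4 neural markers. Intervals below are exact Clopper-Pearson 95% intervals. They cover counting error only, because tags, and peaks of nearby genes, depend on each other. A peak in a pool of cells cannot separate how many cells carry the mark from how much each carries.

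As background, SETD2 travels with elongating RNA polymerase II and trimethylates H3K36 behind it, so the mark accumulates over the bodies of transcribed genes, more toward the 3' end than at the start. Promoters carry other marks and are usually free of it. In a short gene the polymerase reaches the 3' end soon after the start, and it goes on past the polyadenylation site before it terminates. Many short genes of mammals encode ribosomal proteins, mitochondrial proteins, histones or receptors, and several are intronless.

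The position of the lost peaks is visible at the start of their host genes, and the 6 promoter windows below are shown for that reason. Each is the 300 bases from 250 before to 50 after the annotated gene start, 5' to 3' on the strand of the gene, from RefSeq on GRCm38.p6. Capitals mark the bases that lie under the lost peak. All 6 were chosen as strong or isolated hosts and as cases with and without promoter cover. Txnip encodes an inhibitor of thioredoxin and of glucose uptake, and Polr2e a subunit shared by the 3 nuclear RNA polymerases. Pou5f1 encodes the pluripotency factor Oct4, Rpl34 a protein of the large ribosomal subunit, Eef1a1 the factor that brings aminoacyl-tRNA to the ribosome, and Fgf4 the growth factor that stem cells secrete and respond to.
Txnip, chr3:96557707-96558006, plus strand: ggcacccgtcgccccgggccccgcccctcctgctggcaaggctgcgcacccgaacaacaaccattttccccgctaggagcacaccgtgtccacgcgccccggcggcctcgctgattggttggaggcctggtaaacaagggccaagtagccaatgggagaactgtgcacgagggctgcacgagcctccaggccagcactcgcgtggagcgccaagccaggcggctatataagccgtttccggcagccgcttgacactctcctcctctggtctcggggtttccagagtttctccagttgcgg
Polr2e, chr10:80039610-80039909, minus strand: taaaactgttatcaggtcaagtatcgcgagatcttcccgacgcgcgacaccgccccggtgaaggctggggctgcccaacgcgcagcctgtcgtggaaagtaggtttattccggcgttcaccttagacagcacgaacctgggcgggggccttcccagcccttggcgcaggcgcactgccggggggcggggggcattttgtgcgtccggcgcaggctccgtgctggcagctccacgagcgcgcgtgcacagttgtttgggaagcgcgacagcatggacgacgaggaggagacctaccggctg
Pou5f1, chr17:35505782-35506081, plus strand: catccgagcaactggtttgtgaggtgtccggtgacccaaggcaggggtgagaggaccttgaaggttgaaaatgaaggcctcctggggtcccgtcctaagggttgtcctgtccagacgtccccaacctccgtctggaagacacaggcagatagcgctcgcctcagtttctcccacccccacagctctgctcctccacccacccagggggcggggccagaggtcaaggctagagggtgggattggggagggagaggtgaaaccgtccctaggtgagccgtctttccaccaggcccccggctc
Rpl34, chr3:130730349-130730648, minus strand: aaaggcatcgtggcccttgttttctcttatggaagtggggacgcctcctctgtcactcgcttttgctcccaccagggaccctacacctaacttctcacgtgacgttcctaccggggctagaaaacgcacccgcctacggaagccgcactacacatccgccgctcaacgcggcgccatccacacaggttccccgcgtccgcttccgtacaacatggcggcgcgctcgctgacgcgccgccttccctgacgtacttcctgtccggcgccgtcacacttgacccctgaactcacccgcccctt
Eef1a1, chr9:78481675-78481974, minus strand: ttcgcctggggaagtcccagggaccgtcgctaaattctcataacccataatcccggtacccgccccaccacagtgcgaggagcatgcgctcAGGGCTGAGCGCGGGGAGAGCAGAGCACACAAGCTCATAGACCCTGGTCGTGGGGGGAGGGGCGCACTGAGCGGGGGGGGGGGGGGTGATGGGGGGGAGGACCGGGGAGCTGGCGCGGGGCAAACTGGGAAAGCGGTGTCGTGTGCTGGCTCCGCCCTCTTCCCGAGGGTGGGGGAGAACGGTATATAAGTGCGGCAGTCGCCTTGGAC
Fgf4, chr7:144861136-144861435, plus strand: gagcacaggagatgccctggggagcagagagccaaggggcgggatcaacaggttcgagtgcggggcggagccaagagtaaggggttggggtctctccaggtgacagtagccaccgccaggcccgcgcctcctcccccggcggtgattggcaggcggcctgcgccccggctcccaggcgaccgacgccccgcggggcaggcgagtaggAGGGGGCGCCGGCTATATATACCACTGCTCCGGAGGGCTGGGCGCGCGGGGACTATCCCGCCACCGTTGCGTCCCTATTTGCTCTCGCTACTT
The windows of Txnip, Polr2e, Pou5f1 and Rpl34 held no base under a lost peak, since their peaks began 51, 473, 860 and 132 bp after the gene start. In Eef1a1 the peak began 159 bp before the gene start and took in 209 of the 300 bases. In Fgf4 it began 43 bp before the start and took in 93 bases. Fgf4 and Eef1a1 were exceptions among the hosts in this respect. Of the 414 host genes with a promoter window in the RefSeq table, 39 (9.42%) had at least 1 base of it under any control peak and 19 had all 300. The share with at least 1 base was lower in other windows. It was 1.96% in the 3268 windows of short genes without a lost peak and 1.104% in the 12775 of genes over 5 kb. In all 27025 windows it was 2.08%. Hosts hold a control peak by definition, and the part of this in the difference was not tested. In 338 of the 414 the window starts from the outer end of the gene, and in the others from another annotated start. It starts from the outer end in 2944 of the 3268 windows of other short genes and in 6559 of the 12775 of genes over 5 kb. The part of this in the comparisons of cover, CpG and letters was not tested.

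The host promoters were of the CpG-rich kind. They held a median of 21 CpG per 300 bases and 60.5% G or C, against 3 CpG and 46.7% in the 3268 windows of short genes without a lost peak. The 12775 windows of genes over 5 kb held 17 CpG and 58.7% G or C. The letters TATAAA, on either strand, were in 8.70% of host windows, 30.8% of windows of the other short genes, 9.29% of windows of genes over 5 kb and 14.2% of all 27025 windows in the table. GGGCGG, on either strand, was in 62.8% of host windows, 21.1% of windows of the other short genes, 53.5% of those of genes over 5 kb and 35.9% of all. CCAAT, on either strand, was in 39.4% of host windows, 43.5% of windows of the other short genes, 38.0% of those of genes over 5 kb and 38.0% of all. In CpG and in these letters the host windows were closer to those of genes over 5 kb than to those of the other short genes. The other short genes include the olfactory receptor genes. These matches describe the windows and do not identify binding sites.

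Lost peaks lay in the 3' part of their hosts and ran out past the gene end. The strand was known for the hosts of 415 of the 530 peaks. Of these, 306 (73.7%, 69.2 to 77.9) extended past the 3' end of the host and 24 (5.78%, 3.74 to 8.48) past the 5' end. Past both ends ran 17 of them, and 102 (24.6%) lay inside. In length, 310255 of the 324687 bp outside the hosts, or 95.6%, were downstream. The median reach past the 3' end was 613 bp (532 to 720), 135 peaks reached more than 1 kb and 25 more than 2 kb beyond it.

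**Figure D1:**
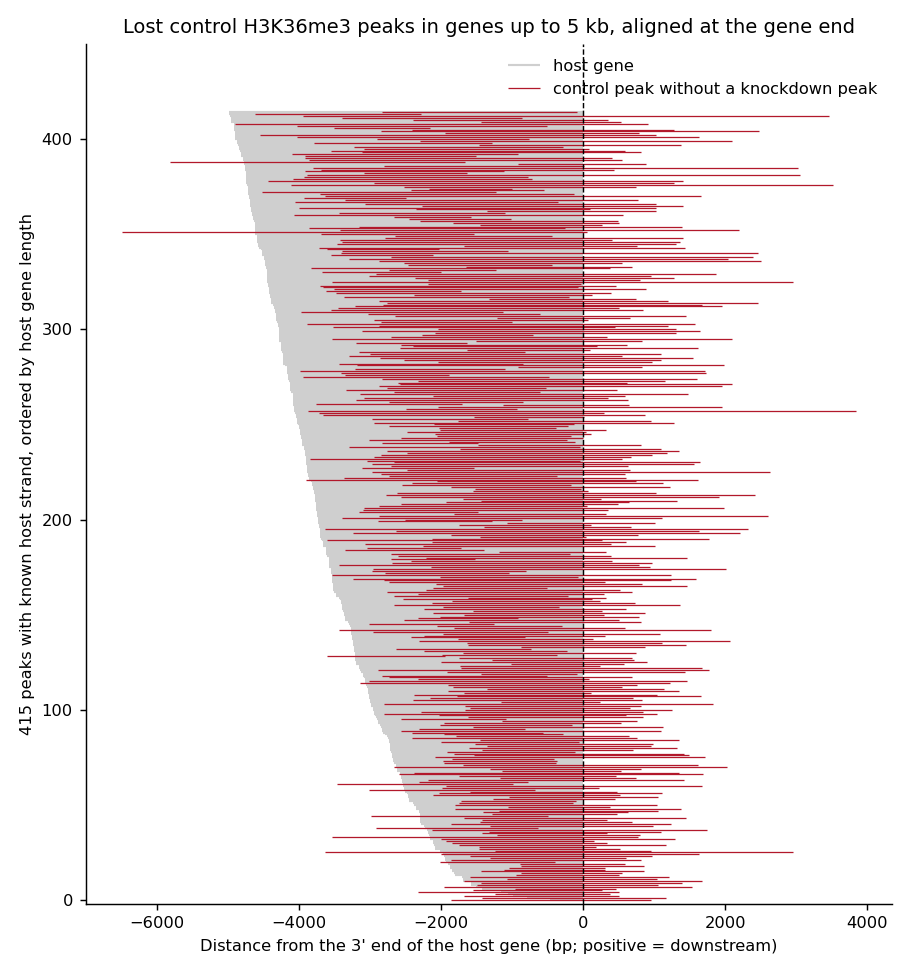
Each row is 1 of the 415 lost peaks with known host strand (red) over its host gene (grey), aligned at the 3' end of the host, with distance in bp on the x axis and rows ordered by host length. Most red lines start inside the gene and cross the dashed line at the gene end (306 of 415), while 24 start left of the grey body.

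The 5' edge of the peak stood back from the gene start. Its median distance after the start was 1053 bp (954 to 1153), with quartiles of 669 and 1548 bp. In 220 of 415 peaks (53.0%, 48.1 to 57.9) the edge was more than 1 kb into the gene, and in 52 it was within the first 500 bp. The distance was larger in longer hosts. Its median was 102.5 bp in the 26 hosts of 2 kb or less, 758 bp in those of 2-3 kb, 1177 bp in those of 3-4 kb and 1316 bp in those of 4-5 kb. The reach past the 3' end went the other way, with medians of 834, 738, 600.5 and 551 bp over the same classes. The intervals overlapped between all neighbouring classes for this reach, and between the last 2 classes for the 5' edge. A midpoint inside the gene is part of the definition, and it caps the part outside at 50% of the peak unless the peak passes both ends.

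The summit, the position of highest tag pile-up in a peak, was inside the host in 469 of 530 peaks. With known strand it was downstream of the gene in 46 of 415 and upstream in 4. Within the gene, 290 of 365 summits (79.5%, 74.9 to 83.5) lay nearer to the 3' end than to the 5' end, at a median of 0.701 of the gene length from the start. The first 20% of the gene held 7 summits and the last 20% held 113.

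The same shape was seen in all short genes with known strand, which were not chosen by peak midpoints. They include the hosts, so the lost peaks are counted here too. All 3682 protein-coding genes of 5 kb or less with known strand were cut into 10 equal bins of the gene body. In bin 1, at the 5' end, 0.0543% of their length lay under knockdown peaks and 2.51% under control peaks. In bin 7 the cover was 0.574% in knockdown and 16.8% in control, and in bin 10 it was 0.409% in knockdown and 17.98% in control. The 414 hosts of lost peaks among these genes had control cover of 10.5% in bin 1, 92.0% in bin 7 and 81.8% in bin 10. Over all 3682 genes the cover thus lay toward the 3' end in both lists. It was 0.412% in knockdown and 17.7% in control at 250 bp past the 3' end, and 0.470% in knockdown and 10.04% in control at 2950 bp. At 250 bp upstream it was 0.0543% in knockdown and 2.23% in control, and at 2950 bp upstream it was 0.163% in knockdown and 8.91% in control. The knockdown values rest on few genes, since 45 of 4569 short genes held any base under a knockdown peak.

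**Figure D2:**
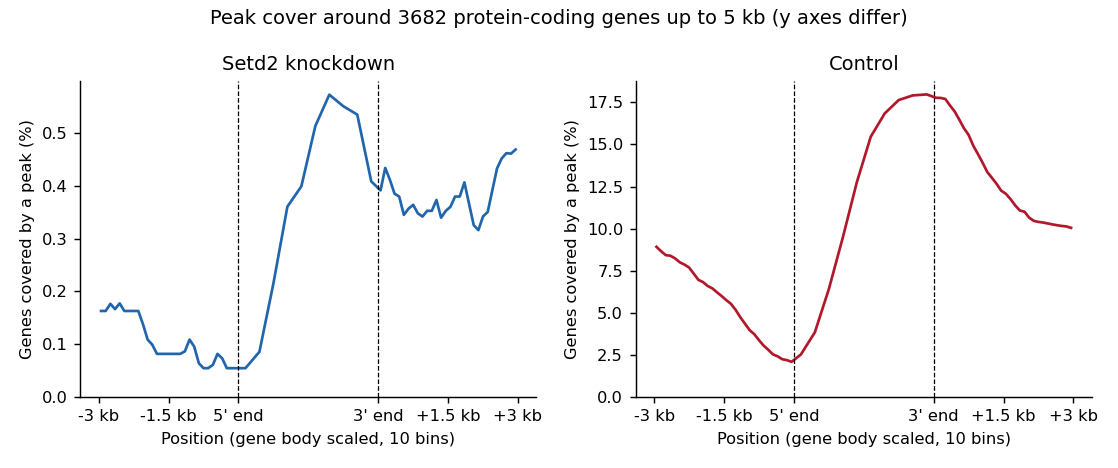
Percent of the 3682 protein-coding genes up to 5 kb with known strand that lie under a peak, by position from 3 kb before the 5' end to 3 kb past the 3' end, in knockdown (left) and control (right), with the gene body scaled to 10 bins and separate y axes. Knockdown cover was 0.0543% in bin 1 and 0.409% in bin 10, and control cover was 2.51% in bin 1 and 17.98% in bin 10.

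Lost peaks in longer genes leaned the same way. In genes of 5-20 kb, 951 of 3242 lost peaks with known strand (29.3%, 27.8 to 30.9) passed the 3' end and 20 (0.617%) the 5' end, and 98.8% of their outside length was downstream. Each share of peaks past an end was higher for the short genes, at 73.7% past the 3' end and 5.78% past the 5' end. The part of peak length outside the host was 25.8% for the short genes and 7.84% for genes of 5-20 kb, and 26.7% and 11.7% of peaks in these groups touched another coding gene. Gene length itself differs between the groups by definition, and its part in these differences was not tested.

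The strongest lost peaks show the range of these layouts. The caller score is minus 10 times the log10 of its p-value, and the caller fold is ChIP over local background. Both are the authors' own values and rank peaks within their list. Txnip had the highest score, 1246.62, from 405 tags on chr3:96558008-96562403 (mm10), or 92.1 tags per kb, the densest of the lost peaks. It covered 98.7% of the gene and ran 546 bp past the 3' end, all of it in the non-coding gene Gm15441, which also overlaps Txnip. Polr2e followed with 429 tags on chr10:80033747-80039186, 78.9 tags per kb, a cover of 87.2% and 2206 bp downstream.

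Mlf2, which encodes a myeloid leukaemia factor protein, had 464 tags on chr6:124932346-124939170, with 3021 bp downstream and its summit past the gene end. No other annotated gene lay within 5 kb of it. Fgf4 had 391 tags on chr7:144861343-144866858 and was covered over its whole length, with 1613 bp downstream. Its nearest annotated gene was 18037 bp away, so none of this peak can be assigned to a neighbour in the annotation. Noc4l, a gene of ribosome assembly, had 478 tags on chr5:110644958-110652356 and a reach of 3461 bp into sequence without annotated genes.

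The reach past the gene end was not limited to hosts with close neighbours. Of 77 lost peaks whose host had no annotated gene within 5 kb, 60 had a known strand. Of these, 42 (70.0%, 56.8 to 81.2) passed the 3' end and 4 the 5' end, and 96.0% of their outside length was downstream. Mlf2 (3021 bp), Spry2 (2099 bp), which encodes a feedback inhibitor of FGF signalling, Ckb (1831 bp), the brain-type creatine kinase, Clp1 (1729 bp), a gene of RNA 3' end processing, and Ran (1717 bp), the GTPase of nuclear transport, reached farthest. Where the host overlapped no coding gene, the median reach was 549 bp with the next downstream coding gene under 1 kb away, 703 bp with it at 1-5 kb and 526 bp with it farther off. Their 95% intervals of 380 to 752, 538 to 964 and 335 to 738 bp overlapped.

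Beyond the host, most of the peak length lay in sequence with no annotated gene. Of the 400101 bp outside the hosts of all 530 peaks, 254080 bp (63.5%) were in no gene, 126402 bp (31.6%) in another protein-coding gene and 19619 bp (4.90%) in other annotated genes only. A total of 138 peaks (26.0%) touched at least 1 other protein-coding gene, of which 132 touched 1, 5 touched 2 and 1 touched 3. The 1 that touched 3 was at Taf7, a subunit gene of the TFIID complex, which lies within 3 long annotated genes of chromosome 18. Non-coding genes and pseudogenes were touched by 62.

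The 138 peaks formed 145 pairs of a host and another coding gene. In 72 pairs the other gene overlapped the host itself. In 37 it lay convergent to the host, tail to tail on the opposite strand, at a median gap of 224 bp, and a median of 873 bp of the peak lay in it. There were 8 pairs with a gene downstream on the same strand, 3 with one upstream on the same strand, 1 divergent pair and 24 with an unknown strand. Among the 145 neighbours, 61 (42.1%) held the midpoint of a control peak of their own, against 42.8% of all 20665 protein-coding genes of these chromosomes. In 3 of the 145 pairs the other gene touched a knockdown peak. No share over all protein-coding genes is given beside this count, so it is not read as few or many.

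Srsf2, an SR splicing factor gene, gave the longest intrusion into a convergent gene. Its peak held 320 tags on chr11:116847485-116852665 and covered 2256 bp of Mettl23. At Rpl7a, of the large ribosomal subunit, the peak reached 1964 bp into Surf1, or 60.7% of that gene, with the summit in Surf1. At Pou5f1 it held 408 tags on chr17:35506892-35513830, covered 81.9% of the gene and ran 3053 bp past its end, through a gap of 1952 bp and over 1101 bp of Tcf19. The summit there was downstream of Pou5f1.

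Overlap of the genes themselves limits how far a peak can be tied to its host. Of the 530 peaks, 113 had a host that overlapped another protein-coding gene and 23 had a host that lay wholly within one. Partial overlaps were short where the 3' ends met on opposite strands, with 36 pairs and a median of 86 bp shared. At the 5' end there were 26 opposite-strand pairs, with a median of 295.5 bp. In the nested hosts the peak lay in both genes. Examples are Riox1, an H3K36 demethylase gene within Heatr4, and Pelo, a gene of ribosome rescue within Itga1. Others are Taf9, a TFIID subunit gene within Ak6, and Exosc4, an RNA exosome gene within Oplah.

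Of the 24 peaks that passed the 5' end, 15 touched another coding gene, as did 10 of the 11 that passed it by more than 500 bp. Ly6g5b, a Ly6-family gene, had the longest upstream reach, 1871 bp, and 4235 bp of its peak lay in Csnk2b, the casein kinase subunit gene that overlaps it. The peak at Bricd5 reached 1648 bp upstream and 2955 bp downstream, with 4877 bp in the overlapping Mlst8, an mTOR complex gene, and 1272 bp in Pgp. Rsc1a1 (1375 bp) lies in Ddi2 and Uchl4 (1163 bp) in Map2k1. At Igflr1 (928 bp) the summit was in U2af1l4, a gene upstream on the same strand. Dnajb8, a chaperone gene of 989 bp, was the exception among the 11, with 689 bp upstream and no other gene touched.

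Where Rpl31 and Cdk4 end, another gene overlaps them. Rpl31, of the large ribosomal subunit, had the longest lost peak, 7700 bp with 495 tags on chr1:39368047-39375746, and all 3835 bp past its end lay in Tbc1d8. Cdk4, the G1 cyclin-dependent kinase gene, had 383 tags, and 1975 bp past its end lay in Tspan31. Rps3a1, of the small subunit, reached 3511 bp beyond its end with 411 tags and touched only 2 small nucleolar RNA genes. Rnf167, an E3 ligase gene, touched both Pfn1 and Eno3, and Fkbp2, a prolyl isomerase gene, touched Ppp1r14b and another annotated coding gene.

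A short gene rarely held a lost peak when it was very short. Of the 4569 protein-coding genes of 5 kb or less on these chromosomes, 525 (11.5%) held one and 26 a kept control peak of 10 kb or less. Without olfactory receptor genes, the share was 3 of 608 genes of 1 kb or less (0.493%), 27 of 730 of 1-2 kb (3.70%), 98 of 710 of 2-3 kb (13.8%), 179 of 759 of 3-4 kb (23.6%) and 218 of 733 of 4-5 kb (29.7%). The intervals of neighbouring classes did not overlap except for 3-4 kb (20.6 to 26.8) and 4-5 kb (26.5 to 33.2). Over the same classes, 3.13%, 15.8%, 32.0%, 37.9% and 40.5% of genes had at least 1 base under a control peak. A lost peak also needs its midpoint in the gene, and the part of this rule in the rise was not tested. The shortest peak of the set was 1076 bp, so that a peak over a gene of 1 kb or less must leave the gene.

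**Figure D3:**
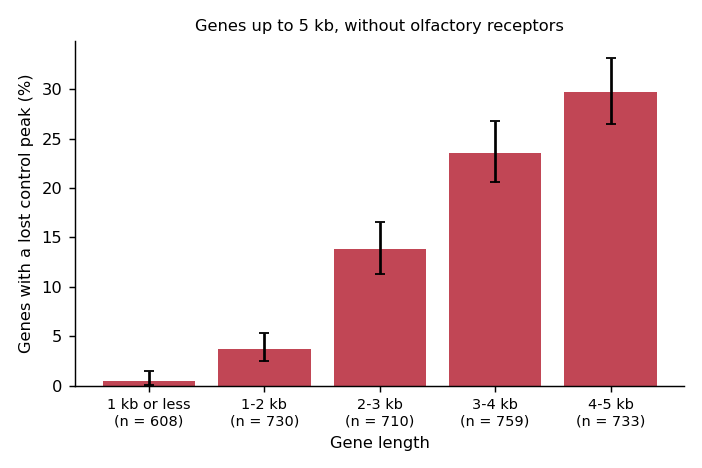
Percent of protein-coding genes with a lost control peak by gene length, without olfactory receptor genes, with exact 95% binomial intervals and the number of genes under each bar. The share rose with gene length, to 29.7% of genes of 4-5 kb, against 0.493% of genes of 1 kb or less. A gene counts only if it holds the midpoint of the peak.

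More short genes were touched by the mark than held a midpoint. At least 1 base lay under a control peak in 946 of the 4569 (20.7%), and 395 of these held neither a lost nor a kept peak. In 193 of the 395 at least 50% of the gene was covered, and 44 were touched by a control peak over 10 kb. Klf2, a naive-state factor covered over 95.1%, Rps21, of the small ribosomal subunit and covered over 100%, and Rplp1, of the ribosomal stalk and also covered over 100%, are such genes. Their peaks were centred outside them.

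The host genes were spread over all 19 chromosomes. The share of short genes with a lost peak ran from 5.85% on chromosome 2 (29 of 496) to 23.1% on chromosome 15 (31 of 134). These counts include olfactory receptor genes, of which 0 of 1029 held a lost peak. Their part in the differences between chromosomes was not tested. Only 5 hosts held 2 lost peaks, namely Mtfp1, Vamp2, Tigd5, Camk2n1 and Hspa8, and 19 peaks had a host with a Gm or Rik symbol. No host held both a lost and a kept peak.

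The gene lists below were chosen with earlier results of these data known, and membership was read from gene symbols. They were not matched for gene length. Without olfactory receptor genes, the share with a lost peak was 0.493% at 1 kb or less and 29.7% at 4-5 kb. Of all short genes, with olfactory receptor genes (0 of 1029) counted, 11.5% held a lost peak. Cytosolic ribosomal protein genes held one in 35 of 68 cases (51.5%, 39.0 to 63.8). A further 11 held a kept peak, beside 26 of all 4569 short genes (0.569%), and these 11 are among the 26. Thus the list was frequent among kept peaks as well as lost ones. Of the rest, 19 were only touched and 3 had no base under a control peak. Rpl31 and Rpl23a, both of the large subunit, had the highest scores among them, and Rps18, of the small subunit, and Rpl9, of the large subunit, the next highest tag densities (78.0 and 76.4 tags per kb) after Rpl23a (80.8). Ribosomal protein genes and Eef1a1 have many processed copies in the genome. The treatment of reads with several matches is not stated in the labels or headers, so their values are uncertain.

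Other lists of translation and RNA synthesis also held lost peaks. Translation factor genes held one in 6 of 10 cases, led by Eif1ad (332 tags, score 694.02) and Eef1a1 (309 tags, 591.88). None held a kept peak, which 0.569% of all short genes did. RNA polymerase subunit genes held one in 3 of 7, led by Polr2e and by Polr3d (323 tags), a subunit gene of polymerase III. Both Exosc4 and Exosc3, of 3 short RNA exosome genes, and Med11, of 2 short Mediator genes, held one. The snRNP and LSm list held none among 6 short genes, of which 4 were touched by a peak centred elsewhere.

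Mitochondrial lists held lost peaks. None of their genes held a kept peak, which 26 of all 4569 short genes (0.569%) did. For lost peaks, the 95% intervals were 14.9 to 53.5% for mitochondrial ribosomal proteins and 7.99 to 39.7% for oxidative phosphorylation. They were 8.52 to 75.5% for import and 14.7 to 94.7% for carriers. Those of oxidative phosphorylation and import include the 11.5% of all short genes that held a lost peak. Mitochondrial ribosomal protein genes held one in 8 of 25 cases, with Mrpl40 (288 tags, 63.4 tags per kb) and Mrpl12 (229 tags, 60.1) the highest in score. Oxidative phosphorylation subunit genes held one in 6 of 29, with Ndufs8 of complex I (235 tags) and Atp5e of ATP synthase (209 tags) highest, and 17 more were only touched. Mitochondrial import genes held one in 3 of 8, Timm29, Timm10 and Tomm40l, at low densities of 46.6, 46.0 and 42.2 tags per kb. Mitochondrial carriers held one in 3 of 5. Slc25a4, the ADP/ATP carrier gene, had 67.3 tags per kb and Slc25a1, the citrate carrier gene, 71.6.

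Lists of protein turnover, tubulins and Tmem genes were also counted. Proteasome genes held a lost peak in 4 of 11 cases, with Psmb6 (232 tags) and Psmb5 (127 tags), which encode catalytic subunits, highest. Chaperone genes held one in 6 of 24 and a kept one in 1. Dnajb1 (310 tags) and Dnajc9 (296 tags), which encode J-domain proteins, led this list. Ubiquitin and E2 enzyme genes held one in 2 of 6, among them Ube2m (103 tags), which encodes an E2 enzyme for NEDD8. Tubulin genes held one in 2 of 6, Tubb4b and Tubb2a, and Tmem genes in 15 of 55, led by Tmem115 (316 tags) and Tmem150a (266 tags).

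Genes of stem cell identity were among the hosts, which were 11.5% of all short genes. Of 11 short genes of the pluripotency list, 5 (45.5%, 16.7 to 76.6) held a lost peak, 1 was only touched and 5 had no base under a control peak. None held a kept peak, which 0.569% of all short genes did. Fgf4 (70.9 tags per kb) and Pou5f1 (58.8) were highest in score. Sox2, the partner of Oct4, had 156 tags on chr3:34650353-34652984, 59.3 tags per kb and a cover of 85.5%. Dppa3, a maternal-effect gene of the naive state, had 49.7 tags per kb, and Gdf3, a TGF-beta family ligand gene, 38.7 tags per kb at a score of 51.47, close to the caller's limit.

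Lists of Sox and Fox, Hox, Zfp and rapidly induced genes differed in their counts. The list of immediate early genes, those induced within minutes of a stimulus, held a lost peak in 5 of 11 cases, led by Dusp1 (136 tags, score 107.52) and Egr1 (80 tags, 106.69). Sox and Fox genes held one in 5 of 31. Foxi3 (104 tags, score 130.01), next to Sox2 in score, is a factor gene of the ear and jaw. Among Hox genes 1 of 24 did, Hoxb13, with 53 tags and a score of 53.83. Zfp genes, taken by symbol whatever their function, held one in 10 of 19, led by Zfp691 (201 tags) and Zfp511 (154 tags). Zfp36 was counted both here and among the immediate early genes.

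Lists of histone, Krt, olfactory receptor, defensin and chemokine genes were nearly empty. The lists were not matched for gene length. Short genes of 1 kb or less numbered 1385 with olfactory receptor genes and 608 without them, and 3 of them held a lost peak. The part of gene length in these list counts was not tested. Histone genes held a lost peak in 1 of 69 cases, H3f3b, which encodes the replication-independent variant H3.3 (80 tags, score 60.78), and 67 had no base under a control peak. Among genes with symbols starting Krt, 3 of 71 held one. Krtcap2 (148 tags) is caught by its symbol and is no keratin, and Krt18 (113 tags) is a keratin gene of simple epithelia. Olfactory receptor genes (0 of 1029), defensins (0 of 60) and chemokines (0 of 22) held none and had no base under a control peak.

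**Figure D4:**
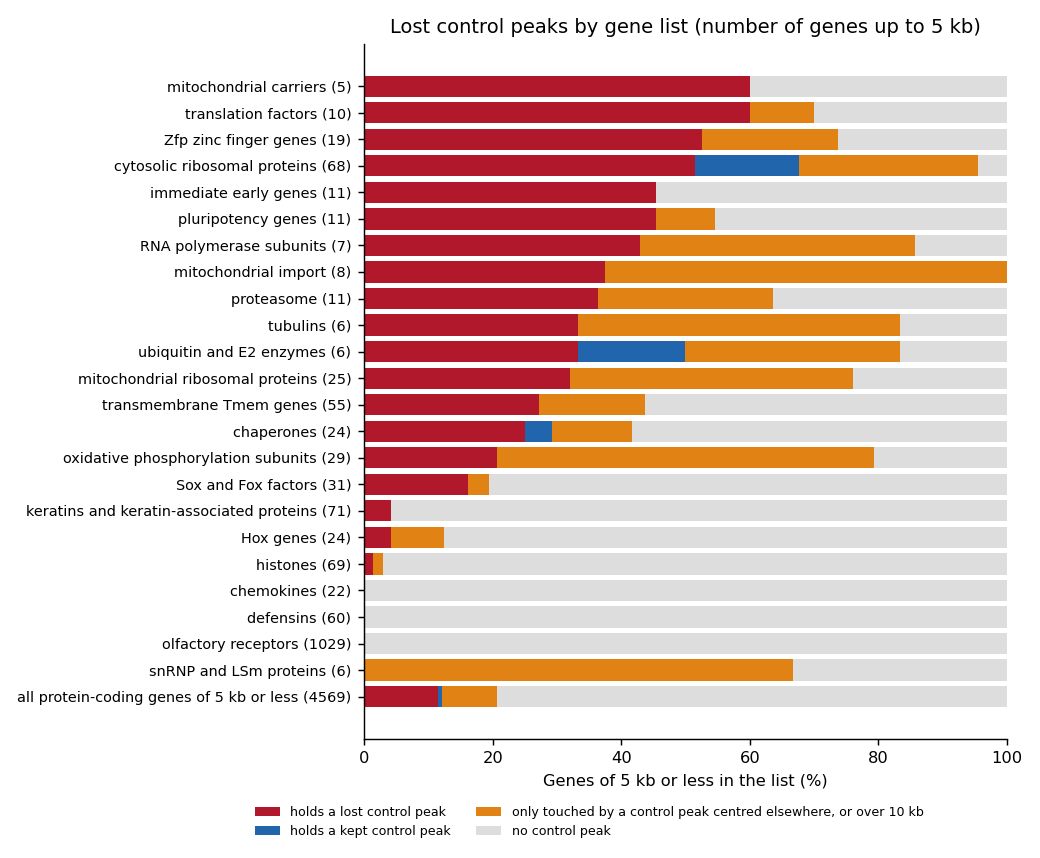
For each list with at least 5 short genes, the percent of its genes of 5 kb or less that held a lost control peak (red), held a kept one (blue), were only touched by a control peak centred elsewhere or over 10 kb (orange), or had no base under a control peak (grey). The bottom bar gives all 4569 short genes, of which 11.5% held a lost peak.

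Loss itself defined the set and is given as a description. Of the 556 control peaks of 10 kb or less in short genes, 530 (95.3%, 93.2 to 96.9) shared no base with a knockdown peak, beside 94.2% of all 28972 control peaks of these chromosomes and lengths. In genes over 5 kb the share was 97.2% (22797 of 23449). The lost peaks had a median of 50.7 tags per kb (49.6 to 51.8), against 72.4 (67.9 to 75.7) for the 26 kept ones. Their median length was 2728.5 bp, against 4291 bp for the kept ones. The lost peaks ran from 34.1 to 92.1 tags per kb, and their median was 2.62 times the mean density of kept control tags over the caller's genome size. Control peaks were also ranked into 10 equal classes of tags per kb. In the densest class 152 of 177 peaks in short genes (85.9%, 79.9 to 90.6) were lost and 25 of the 26 kept peaks lay there. In the 5 sparsest classes all 160 were lost. Peaks in longer genes showed the same order. In the densest class 87.1% were lost in genes of 5-20 kb, 87.9% in 20-50 kb, 82.4% in 50-200 kb and 71.25% over 200 kb. In the 5 sparsest classes these shares were 99.0%, 99.3%, 99.4% and 96.8%.

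In 5-20 kb genes lost peaks had a median of 49.6 tags per kb and 3113 bp, and in genes over 200 kb a median of 43.5 tags per kb and 1989 bp. The lost and kept groups overlapped in density. Txnip, lost at 92.1 tags per kb, was denser than 25 of the 26 kept peaks.

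**Figure D5:**
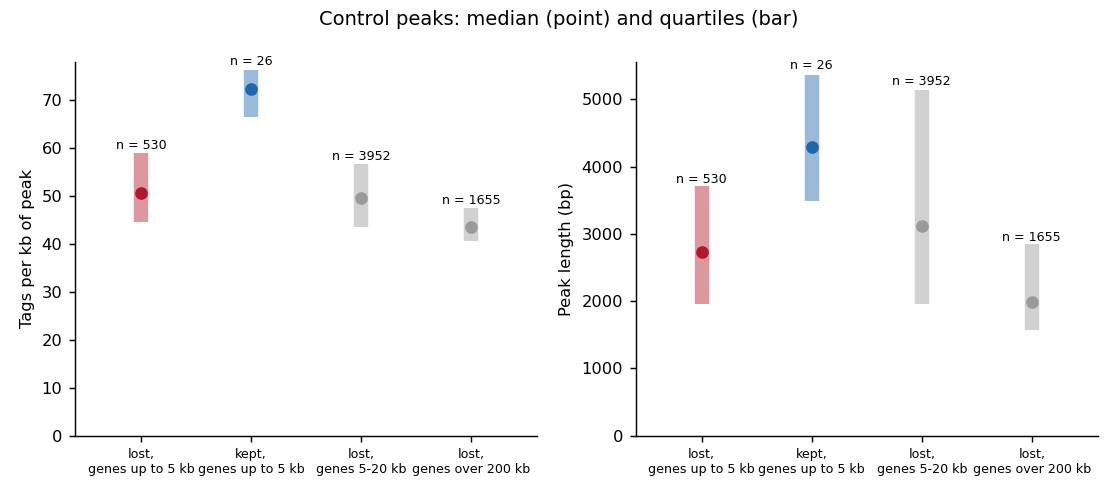
Median (point) and quartiles (bar) of tags per kb (left) and peak length in bp (right) of control peaks, for the 530 lost and 26 kept peaks in genes up to 5 kb and for lost peaks in genes of 5-20 kb and over 200 kb. The kept peaks had the highest medians, 72.4 tags per kb and 4291 bp.

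The kept peaks name 26 short genes whose control peak was still called at least in part. They are not all short genes with a call, since 45 of 4569 held a base under a knockdown peak. Klf2, which held no kept peak, had 41.3% of its length under knockdown peaks. Rps10, of the small subunit, had the highest control score, 1450.02, and 3125 bp of its 5733 bp stayed under knockdown peaks. Stk16, a Golgi kinase gene, kept 1741 of 5891 bp and Pip4p1, a phosphoinositide phosphatase gene, 1013 of 5233 bp. Rsrp1, an arginine- and serine-rich protein gene, kept 1431 of 5390 bp and Rpl12 1516 of 3946 bp. Over all 26, 41.4% of control peak length was shared. Past the 3' end ran 306 of 415 lost peaks, against 17 of the 20 kept peaks with known strand. Past the 5' end ran 24 of 415 lost peaks, against 3 of 20 kept peaks.

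At the thresholds of the definition the values were as follows. The longest lost peaks, at Rpl31, Rps3a1 and Noc4l, had 7700, 7619 and 7399 bp, well under 10000 bp, and the shortest one over that limit with its midpoint in a short gene had 10912 bp, at Ifitm5. The longest hosts were Ubald2 and Zfp422, both of 4984 bp, and Camk2n1 of 4979 bp, and the shortest hosts just past the limit were Zbed6 (5007 bp), Spc24 (5013 bp) and Tor2a (5017 bp). The lost peaks nearest to a knockdown peak were at Tmem265 (1335 bp away), Rps19bp1 (1476 bp) and Snapc5 (1484 bp). The kept peaks that shared least with one were at Pip4p1 (1013 bp), Socs3 (1233 bp) and Atf4 (1270 bp). A knockdown peak lay within 10 kb of 28 of the 530 lost peaks (5.28%), and the median distance was 139011 bp. No share for other control peaks is given beside this count.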

How the data were processed

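H3K36me3 ChIP and input libraries of knockdown and control cells were used, grouped by their titles. The build is mm10, and the tools named are Bowtie 1.1.2 and FastQC 0.11.5, per the submitters' processing notes. Per the file headers, peaks were called with MACS 1.4.2 on merged replicates against merged inputs at a p cutoff of 1e-05, keeping 1 tag per position. The deposited tag count of a peak is not normalized, and its deposited score is minus 10 times the log10 of the p-value. The deposited fold is a ratio over local background, and the deposited FDR is in percent. The BED files repeat the deposited folds and were not needed beyond the tables. The larger data set was scaled to the smaller, per the file headers.

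Genes were taken from a RefSeq table of GRCm38.p6, the same build, and strands and promoter windows from a matching RefSeq promoter table. Strand was found for 415 of 530 peaks. Peak midpoints, shared bases, reach past gene ends, neighbours and medians with order-statistic intervals were computed in Python 3.11.15 with pandas 2.3.3, numpy 2.4.6 and scipy 1.17.1, with functions tested on simulated intervals. Tags per kb are tags over peak length, not corrected for input. The peaks, the 25 gene lists and the measures were chosen with earlier results of these data known. The reach by strand was added after the data had been seen. Named are hosts without Gm or Rik symbols that rank highest in score, tags per kb, length, outside length, other genes touched or cover of isolated hosts, that lie next to a threshold, or that lead a gene list. Genes given as examples of nested, convergent, upstream-reaching, isolated or only touched genes were chosen after their values were seen. The 11 alternatives tried are given at the end. Not every host picked by this rule is reported here.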

Additional observations from a re-analysis of the deposited data

How the results depend on the processing

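No paired analysis was possible because the authors called peaks on merged replicates, so no value exists for a single replicate. Of 110 values under 11 alternatives, 77 stayed within the interval of the reported value (for the number of peaks, within 1.5 times). Counting a knockdown peak within 1 kb as kept left the same 530 peaks and every value unchanged, as did an FDR limit of 5%. The values of these alternatives are counted among the 77 and among the 11 below, but add no check. The 3' lean held under all 11: the share of outside length lying downstream was 95.6% as reported and ranged from 88.2% to 97.7%. That share has a narrow interval because it counts bases. It was 94.2% with no limit on peak length, 95.8% when a peak counted as kept only with at least 50% of it covered and 95.8% at an FDR of 1%. It was 97.3% with at least 50% of the peak in the gene and 96.2% without Gm and Rik hosts. With a gene limit of 3 kb there were 128 peaks, a median of 35.04% of peak length outside, 9.38% covering the whole host, a median length of 2294.5 bp, 82.9% past the 3' end, 16.2% past the 5' end and 88.2% of outside length downstream. With a limit of 10 kb these were 1732 peaks, 8.01%, 1.097%, 3205.5 bp, 56.1%, 2.44% and 97.4%, with 21.3% touching another coding gene and a median of 52.1 tags per kb. The cause was not tested. With scores of 100 or more, 98.2% of peaks in short genes were lost, a median of 27.4% of peak length lay outside, 30.1% touched another coding gene, the medians were 3148 bp and 54.5 tags per kb, 81.8% passed the 3' end and 96.2% of outside length was downstream. The lost share was 98.7% when at least 50% of the peak had to stay covered and 99.5% at an FDR of 1%. With hosts that overlap no annotated gene there were 347 peaks, of which 15.3% touched another coding gene, and 97.7% of outside length was downstream. Knockdown ChIP kept 29416169 tags and control ChIP 36244210, and the part of this depth in the lost call was not tested.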
